A study of Mus musculus with 9 samples.

Results

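The genes described are 9 of the 55822 gene IDs in the count table, chosen by symbol as the mucosal secretory genes of foregut epithelia: the trefoil factors Tff1, Tff2 and Tff3, the gastrokines Gkn1, Gkn2 and Gkn3, and 3 genes of secretory cell differentiation, Agr2, Spdef and Fcgbp. They were measured by bulk RNA-Seq in whole extrahepatic bile duct (EHBD) tissue of adult C57BL/6 mice of both sexes, the C57BL/6J substrain by the study's methods. Sham mice (n = 4, 2 males and 2 females) had a laparotomy alone, and mice with bile duct ligation (BDL, n = 5, 2 males and 3 females) also had the distal EHBD tied off near the duodenum, which obstructs bile flow. EHBDs were collected 24 hours after surgery, and each library came from 1 mouse with no transgene or drug in either group. Libraries of sham mice held 24101163 to 27025227 counts and those of BDL mice 23067967 to 29991945. Of the 9 genes, 7 passed a filter of at least 10 counts summed over the libraries. Gkn1 and Gkn2 did not pass.

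Trefoil factors are small secreted proteins, held in a clover-like fold by disulfide bonds, that are stored with mucins and take part in the repair of injured mucosa. In the stomach Tff1 is made with surface mucus and Tff2 with the mucus of gland cells, whereas Tff3 is best known from intestinal goblet cells. Gastrokines are secreted proteins of the gastric surface epithelium. The large bile ducts derive from the same foregut region and carry peribiliary glands, small mucous glands in the duct wall.

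Markers of biliary epithelium were present in every library, with 14 of 14 detected and a summed normalized count (counts divided by DESeq2's size factor of each library) of 153000 to 216000 in the sham group and of 331000 to 494000 in the BDL group. Sham libraries also held RNA of pancreas, which lies against the distal duct. The 20 acinar enzyme markers took 11.0% to 26.3% of all counts in sham libraries and 0.00778% to 1.86% after BDL (a BDL minus sham difference of -20.3 percentage points, with p = 0.0159 in a two-sided exact permutation test, which cannot give less with 4 against 5 libraries). All 20 fell after BDL, so that surgery and acinar RNA cannot be told apart by group. Size factors were 0.434 to 1.17 for sham libraries and 1.22 to 1.63 for BDL. In whole tissue, fewer cells of a type and less RNA per cell cannot be told apart. Of 10 stomach markers, Atp4b of parietal cells was at 0 in every library and 5 others, Cblif, Gast, Chia1, Kcne2 and Aqp4, had too few counts to test. The other 4 were detected, at sham means of 1680 normalized counts for Pgc, 255 for Ghrl, 85.4 for Gper1 and 33.8 for Atp4a (69.5 after BDL).

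Of the 7 genes tested, 1 was higher and 5 were lower after BDL, which is 6 called against a background of 41.4% of all 21299 genes called in either direction (21.4% higher and 19.9% lower) by edgeR's quasi-likelihood test at an adjusted p under 0.05. The groups did not overlap in 6 of the 7, against 38.2% of all genes. The median log2 fold change was -2.07 over the 7 genes and -0.03 over all genes tested. The counts of 1 higher and 5 lower held in each of the 9 fits that left out 1 library. With library totals alone as scaling, which moved the median of all genes to 0.89, the log2 fold changes were 8.10 for Tff1, -2.18 for Tff2, 1.04 for Tff3, -4.42 for Gkn3, -1.47 for Agr2, -1.11 for Spdef and -0.72 for Fcgbp, and the call of Fcgbp ended. Tff3 was not called there either (adjusted p = 0.144, edgeR).

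**Figure D1:**
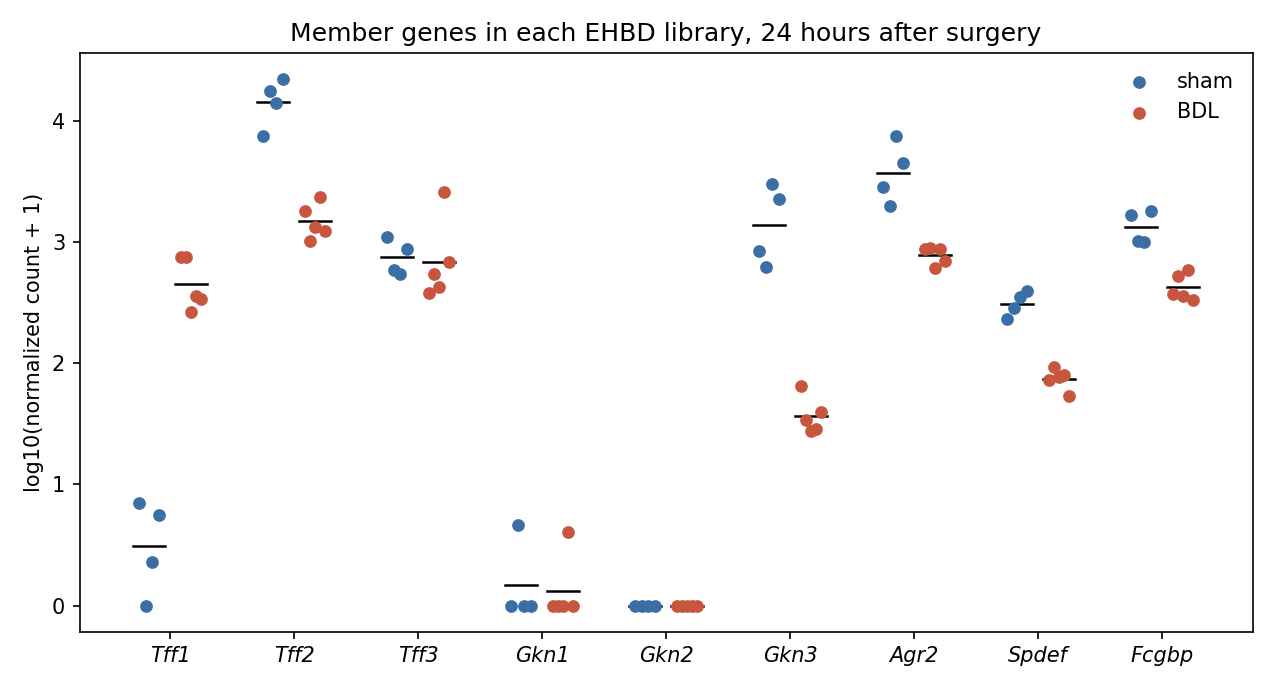
Normalized counts of the 9 genes on a log10(normalized count + 1) axis, with 1 point per library, sham in blue, BDL in red and a black line at the mean of the log values. Tff1 was the gene of the 9 that lay higher in every BDL library than in any sham library. Tff2, Gkn3, Agr2, Spdef and Fcgbp lay lower in every BDL library, Tff3 overlapped, and Gkn1 and Gkn2 lay at or near 0.

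Start-site sequence was taken from RefSeq on GRCm38.p6 for 6 of the 9 genes, from 250 bases before to 50 after the start. It is shown for the adjacent paralogs Gkn2 and Gkn3, because the first had 0 counts in every library and the second was expressed in sham EHBDs, and for Agr2 and Spdef, which fell together. Matches to 3 motifs on either strand are in capitals, and the share of all 32851 RefSeq windows of this length that hold each motif is given. The TATA box was searched as TATAAA, which 13.6% of the windows hold. A loose form of the forkhead core was searched as TNTTTNC, where N is any base. Of the windows 52.7% hold it, so a match is common and need not be a forkhead site. A GATA site was searched as AGATAA, which 11.2% of the windows hold.
Gkn2 (chr6:87373115-87373414, plus strand): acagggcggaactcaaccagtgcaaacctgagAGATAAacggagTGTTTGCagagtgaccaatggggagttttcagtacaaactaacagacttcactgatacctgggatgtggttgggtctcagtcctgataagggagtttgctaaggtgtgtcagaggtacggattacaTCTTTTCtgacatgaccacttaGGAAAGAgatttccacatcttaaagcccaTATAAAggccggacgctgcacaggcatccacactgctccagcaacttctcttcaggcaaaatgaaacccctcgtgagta
Gkn3 (chr6:87388886-87389185, minus strand): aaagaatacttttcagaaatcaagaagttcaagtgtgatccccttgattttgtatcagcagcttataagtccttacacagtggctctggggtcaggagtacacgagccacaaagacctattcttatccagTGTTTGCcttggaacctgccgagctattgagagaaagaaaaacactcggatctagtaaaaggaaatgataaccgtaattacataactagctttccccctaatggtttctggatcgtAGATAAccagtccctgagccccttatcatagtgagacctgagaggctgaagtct
Agr2 (chr12:35992675-35992974, plus strand): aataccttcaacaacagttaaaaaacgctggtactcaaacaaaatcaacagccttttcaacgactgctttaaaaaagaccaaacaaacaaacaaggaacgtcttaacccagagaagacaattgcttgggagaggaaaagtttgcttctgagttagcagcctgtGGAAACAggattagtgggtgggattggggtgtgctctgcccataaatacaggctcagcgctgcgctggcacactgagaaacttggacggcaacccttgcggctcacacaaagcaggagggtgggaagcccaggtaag
Spdef (chr17:27728902-27729201, minus strand): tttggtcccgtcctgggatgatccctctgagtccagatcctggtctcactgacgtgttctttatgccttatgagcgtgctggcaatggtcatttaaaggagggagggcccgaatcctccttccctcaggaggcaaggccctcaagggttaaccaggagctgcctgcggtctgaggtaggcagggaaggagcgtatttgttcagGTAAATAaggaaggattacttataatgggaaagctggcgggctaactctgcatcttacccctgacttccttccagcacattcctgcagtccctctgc
The Gkn2 window held a TATA match 29 bases before the start, 3 forkhead matches and 1 GATA match. The Gkn3 window held 1 forkhead match at -120, 1 GATA match at -4 and no TATA match. Agr2 and Spdef held 1 forkhead match each, at -87 and -47, on the opposite strand. Gkn1 held 1 GATA match, and Fcgbp held none of the 3 motifs. These matches describe letters in the windows and no binding was measured.

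Tff1 went from near absence to clear expression after BDL. Tff1 (ENSMUSG00000024032, chr17:31380369-31384251 of GRCm39, minus strand) had 7, 0, 1 and 2 counts in sham replicates 1, 2, 5 and 7, and 1034, 922, 384, 582 and 437 counts in BDL replicates 3, 4, 6, 8 and 10. Mean normalized counts were 2.98 ± 2.79 (SD, n = 4) for sham and 493.6 ± 241 (SD, n = 5) after BDL. The lowest BDL library, at 263 normalized counts, stood far above the highest sham library, at 5.99. The log2 fold change was 7.27 (standard error 0.65, adjusted p = 4.42e-05, edgeR), or 154-fold, against a sham group of 10 counts in all. Of those 10 counts 7 came from sham replicate 1, and the log2 fold change was 8.10 without it (adjusted p = 0.000245, edgeR). Relative to the biliary epithelial markers of the same library, it was 6.45 higher on the log2 scale.

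Tff2, the trefoil factor of mucous gland cells, moved the other way and stayed the most abundant of the 3 genes by mean level per kb of exon. Tff2 (ENSMUSG00000024028, chr17:31360023-31363262, minus strand) stood at 7511, 17810, 14000 and 22070 normalized counts in sham replicates 1, 2, 5 and 7. After BDL it stood at 1790, 1026, 1323, 2375 and 1242 in replicates 3, 4, 6, 8 and 10. The highest BDL library was below the lowest sham library, and the means of 15350 ± 6178 (SD, n = 4) and 1551 ± 538.3 (SD, n = 5) differed by -3.26 on the log2 scale (standard error 0.34, adjusted p = 9.19e-05, edgeR), or 9.60-fold. In CPM, a share of all counts of the library that takes no scaling factor, Tff2 was 325 to 443 in sham and 53.6 to 129 after BDL, again without overlap. The 4 sham libraries came in the same order by normalized Tff2 as by acinar share (11.0%, 25.6%, 20.6% and 26.3% in replicates 1, 2, 5 and 7), and in the opposite order by size factor (1.168, 0.5514, 0.7629 and 0.4338). In CPM, at 324.9, 363.4, 443 and 376.9, they did not come in that order. In a fit with the acinar level as an added covariate the log2 fold change was -2.15 (adjusted p = 0.0206, edgeR).

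Tff3, the goblet cell trefoil factor, did not pass the test. Tff3 (ENSMUSG00000024029, chr17:31344280-31348620, minus strand) stood at 1104, 591.2, 546.6 and 869.1 normalized counts in sham replicates 1, 2, 5 and 7, and at 379.4, 547.9, 421.3, 2605 and 679.4 in BDL replicates 3, 4, 6, 8 and 10. A single library, BDL replicate 8, was above every other library, and 4 of the 5 BDL libraries lay within or below the sham range. The log2 fold change was 0.13 (standard error 0.59, adjusted p = 0.882, edgeR), and it was -0.57 (standard error 0.27, adjusted p = 0.124) without BDL replicate 8. The sign of the Tff3 difference also turned without sham replicate 5 (-0.19), with upper-quartile scaling (-0.01), with sham replicates 1 and 5 alone (-0.04), without both sham replicate 1 and BDL replicate 8 (-0.33), relative to biliary markers (-0.85) and in males (-0.64, against 0.80 in females). Other alternatives moved it up, to 1.43 with the acinar covariate (adjusted p = 0.347, edgeR) and 1.04 with library totals alone (adjusted p = 0.144, edgeR). In CPM, Tff3 was 12.1 to 47.8 in sham and 19.6 to 142 after BDL, which overlap. Tff3 passed the test under none of the alternatives run.

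With these opposite changes the trefoil transcripts of the libraries, nearly all Tff2 in sham, were a mixture of 3 after BDL. Levels were compared between genes as normalized counts per kb of exon. Tff2 made up 85.6%, 96.3%, 95.7% and 95.7% of the summed trefoil level in sham replicates 1, 2, 5 and 7, and 62.7%, 44.9%, 65.3%, 42.0% and 53.9% in BDL replicates 3, 4, 6, 8 and 10. Tff3 took 3.66% to 14.4% in sham and 15.2% to 52.7% after BDL, and Tff1 took 0% to 0.0573% in sham and 5.30% to 27.7% after BDL. None of the 3 shares overlapped between the groups (p = 0.0159 for each in a two-sided exact permutation test, the smallest possible). The shares of a library add up to its whole trefoil level, so these are not separate tests. The share of Tff3 rose from 6.66% ± 5.16 (SD, n = 4) to 30.6% ± 14.1 (SD, n = 5) while its own level passed no test and the summed trefoil level fell from 27500 ± 10300 to 5130 ± 2540 normalized counts per kb (p = 0.0159, exact permutation test). In BDL replicate 8, Tff3 was more abundant than Tff2. The mean of the Tff3 share was 18.4 to 27.7 percentage points higher after BDL with 1 library left out. Sham replicate 1, with the least acinar RNA of the sham libraries (11.0% of counts), also had their lowest Tff2 share (85.6%). Surgery and acinar RNA cannot be told apart for these shares, and whether pancreas gave part of the Tff2 was not tested.

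**Figure D2:**
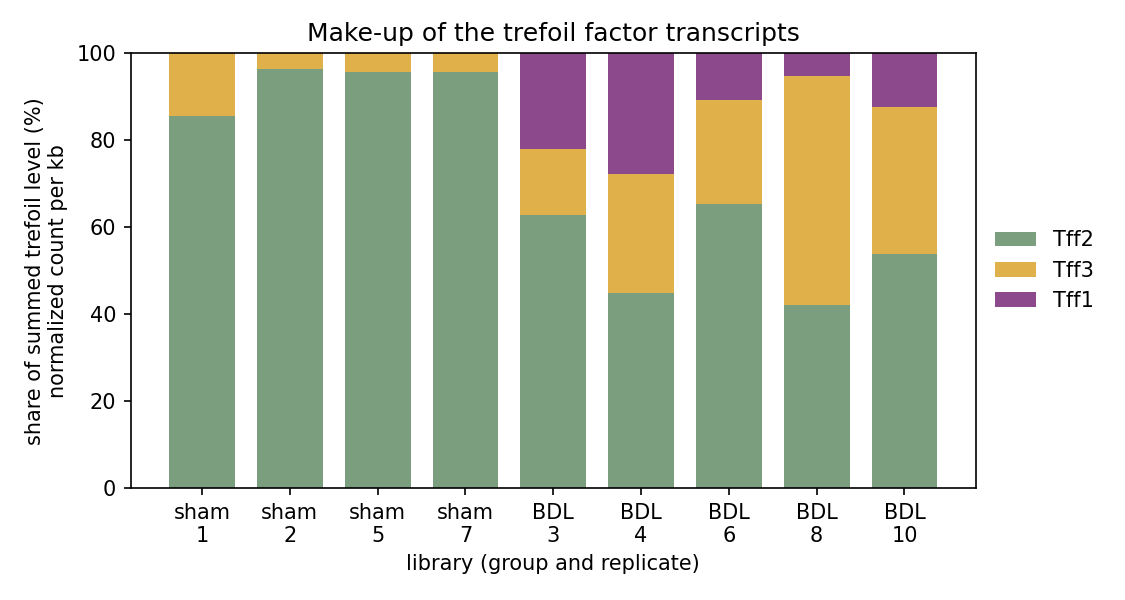
Stacked bars of the share of Tff2, Tff3 and Tff1 in the summed trefoil level (normalized count per kb of exon, in percent), with 1 bar per library and the group and replicate beneath. Sham bars are at least 85.6% Tff2, and the 5 BDL bars hold 42.0% to 65.3% Tff2 with 5.30% to 27.7% Tff1.

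The gastrokines showed a different split, with 2 genes at or near 0 counts beside a gene that fell. Gkn2 (ENSMUSG00000030049, chr6:87350339-87356479, plus strand) had 0 counts in every library, which allows at most 0.1 to 0.13 CPM (3 counts per library, counting error only). Gkn1 (ENSMUSG00000030050, chr6:87322632-87327924, minus strand) had 7 counts in all, 2 in sham replicate 2 and 5 in BDL replicate 8. Both encode the gastrokines of the stomach surface, and neither was expressed at a level these libraries could compare.

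Gkn3 (ENSMUSG00000030048, chr6:87360238-87365917, minus strand) was by contrast among the clearly expressed genes of sham EHBDs. In mice Gkn3 is made by gastric mucous neck cells and is also known as a marker of arterial endothelium in the brain. It stood at 838.9, 623.9, 3009 and 2255 normalized counts in sham replicates 1, 2, 5 and 7. After BDL it stood at 64.21, 32.76, 26.71, 27.6 and 38.74 in replicates 3, 4, 6, 8 and 10. Every BDL library was far below the lowest sham library, and the log2 fold change was -5.29 (standard error 0.52, adjusted p = 7.24e-05, edgeR), or 39.1-fold, the widest fall of the 7 genes. In the fit with the acinar covariate it was -3.94 (adjusted p = 0.0302). Of 8 arterial endothelial markers 4 fell, 1 rose and 3 did not pass, beside 41.4% of all genes called. Their median log2 fold change was -0.71. Their summed level was 4490 to 8170 in sham and 3700 to 4870 after BDL, which overlap. Whether arterial or glandular cells carried Gkn3 was not tested.

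The response of Gkn3 differed between the sexes by 1 of the 2 tools used. Female sham libraries stood at 2255 and 3009 normalized counts and male sham libraries at 623.9 and 838.9, whereas after BDL females stood at 26.71 to 32.76 and males at 38.74 and 64.21. The mean was 90.7-fold lower after BDL in females and 14.2-fold lower in males. The male minus female difference of the log2 fold changes was 2.67 (standard error 0.38, unadjusted p = 7.6e-05). edgeR called no gene of 21299 for this interaction (0% called, adjusted p = 1 for Gkn3, 544 genes at an unadjusted p under 0.05), whereas DESeq2 called 5 genes, Gkn3 among them (adjusted p = 0.000106, 547 genes at an unadjusted p under 0.05). The difference was 2.27 to 2.98 with 1 library left out. For Agr2 it was 1.31 (standard error 0.41, adjusted p = 1, edgeR, unadjusted p = 0.0124), with female sham libraries at 4537 and 7546 and male sham libraries at 1980 and 2836. In the sham group the sexes also differ in the form of their animal name, 1 digit for females and 4 digits for males, so that sex and whatever the name form marks cannot be told apart there.

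**Figure D3:**
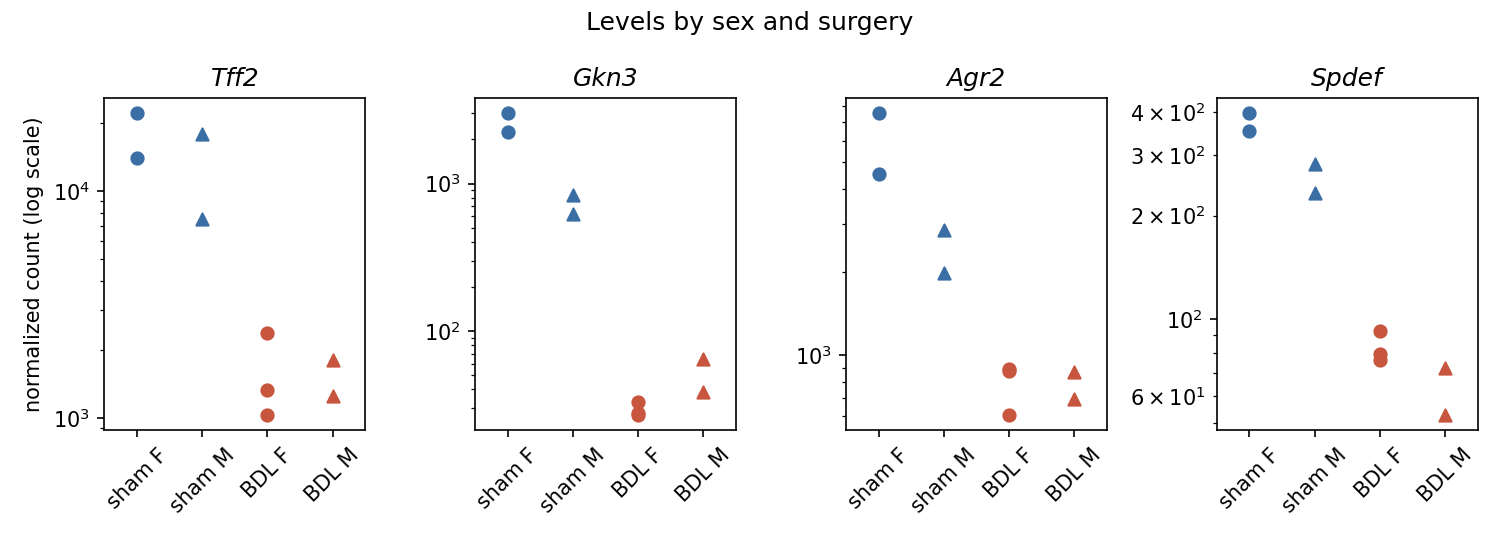
Normalized counts on log axes of Tff2, Gkn3, Agr2 and Spdef for females (circles) and males (triangles), sham in blue and BDL in red, with 1 point per library. For Gkn3 the female sham libraries (2255 and 3009) lie above the male ones (623.9 and 838.9), and after BDL the order is reversed (26.71 to 32.76 against 38.74 and 64.21).

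Agr2, Spdef and Fcgbp, which mark mucous and goblet cells, fell together. Agr2 encodes a disulfide isomerase of the endoplasmic reticulum (ER) that is needed for mucin folding. Agr2 (ENSMUSG00000020581, chr12:36042904-36054086, plus strand) stood at 2836, 1980, 7546 and 4537 normalized counts in sham replicates 1, 2, 5 and 7, and at 869.1, 889.5, 605.5, 877.7 and 696.5 in BDL replicates 3, 4, 6, 8 and 10. The sham libraries were spread over a 3.81-fold range and the BDL libraries over 1.47-fold, with no overlap. The log2 fold change was -2.31 (standard error 0.29, adjusted p = 0.000276, edgeR), or 4.96-fold. The call ended with the acinar covariate (log2 fold change -1.61, adjusted p = 0.0975, edgeR), and the CPM values overlapped, at 40.4 to 239 in sham and 34.4 to 47.7 after BDL.

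Spdef, an ETS family transcription factor that drives goblet and mucous cell maturation, fell with the smallest spread. Spdef (ENSMUSG00000024215, chr17:27933326-27947929, minus strand) stood at 232.8, 282.9, 351.3 and 396.5 normalized counts in sham replicates 1, 2, 5 and 7 and at 72.24, 92.55, 76.03, 79.12 and 52.68 in BDL replicates 3, 4, 6, 8 and 10. Spdef was 4.20-fold lower after BDL, and its log2 fold change of -2.07 in edgeR (standard error 0.17, adjusted p = 3.48e-05) had the smallest standard error of the 7 genes. It lay between -2.17 and -2.01 with 1 library left out and was -1.11 with library totals alone (adjusted p = 0.0265, edgeR). CPM values, at 5.77 to 11.1 in sham and 2.95 to 4.84 after BDL, did not overlap either.

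Fcgbp encodes a large mucus protein that is cross-linked with gel-forming mucins. Fcgbp (ENSMUSG00000047730, chr7:27770661-27820287, plus strand) stood at 1660, 1030, 997.5 and 1803 normalized counts in sham replicates 1, 2, 5 and 7 and at 371.4, 521.7, 361, 590.6 and 330.8 in BDL replicates 3, 4, 6, 8 and 10. All sham libraries were above all BDL libraries, and the log2 fold change was -1.66 (standard error 0.24, adjusted p = 0.000521, edgeR), or 3.17-fold. It did not pass with the acinar covariate (-1.49, adjusted p = 0.0777) or with library totals alone as scaling (-0.72, adjusted p = 0.123), and the CPM values overlapped. A near copy, Fcgbpl1, lies directly downstream (chr7:27828891-27864236), and reads of the pair could be assigned to either, so the value of Fcgbp is uncertain to that extent. Fcgbpl1 stood at 200 ± 42.1 (SD, n = 4) normalized counts in sham and 150 ± 83.0 (SD, n = 5) after BDL, and the log2 fold change was -0.47 (standard error 0.38, adjusted p = 0.348, edgeR).

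**Figure D4:**
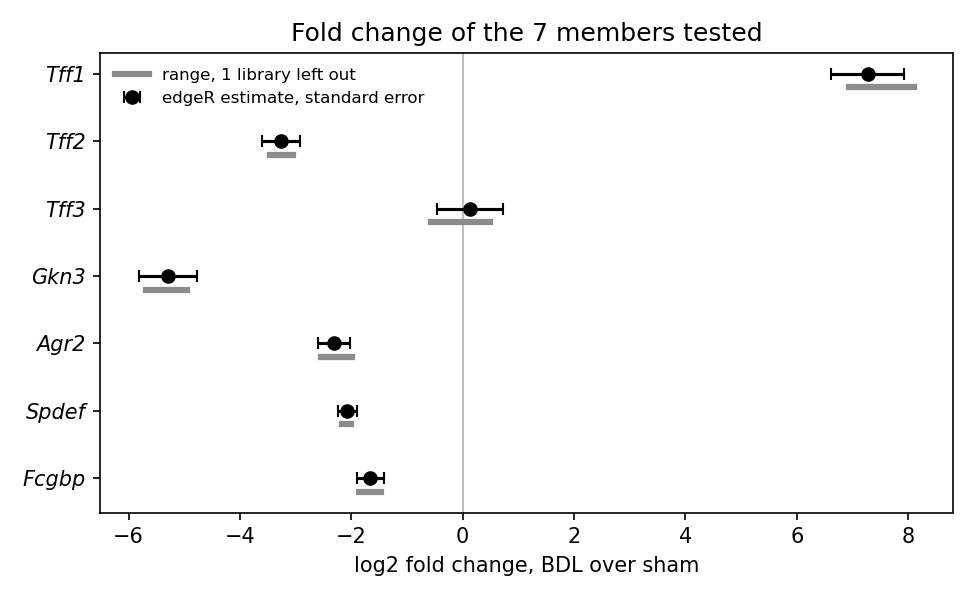
Log2 fold changes (BDL over sham) of the 7 genes tested, as points with the edgeR standard error, above gray bars for the range with 1 library left out. Tff1 lies at 7.27, 5 genes lie between -5.29 and -1.66, and the bar of Tff3 crosses 0 (-0.57 to 0.49).

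Per kb of exon the order of mean levels in sham was Tff2 (26010), Agr2 (3143), Tff3 (1507), Gkn3 (1476), Spdef (137), Fcgbp (130.8) and Tff1 (4.24). The libraries of Agr2, Tff3 and Gkn3 overlapped, and so did those of Spdef and Fcgbp. After BDL it was Tff2 (2629), Tff3 (1796), Tff1 (702.2), Agr2 (586), Fcgbp (41.5), Gkn3 (33.4) and Spdef (32.3), so that Tff1 moved from last place to a level overlapping that of Agr2 (374.2 to 1074 against 450.5 to 661.8 per kb). Tff2 and Tff3, Tff3 and Tff1, and the last 3 genes overlapped as well.

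The 3 trefoil genes lie in 40.0 kb of chromosome 17 in 1 orientation, and the 3 gastrokine genes in 43.3 kb of chromosome 6. Of 7 other genes tested within 150 kb, those with an adjusted p under 0.05 were Abcg1 and Antxr1, and both were lower. Between Tff1 (7.27) and Tff2 (-3.26), whose starts are 21.0 kb apart, the sign of the log2 fold change turned. Beyond Tff1, Tmprss3 had a log2 fold change of 1.02 (adjusted p = 0.176, edgeR), Ubash3a -1.46 (0.299), Rsph1 -0.75 (0.162) and Slc37a1 0.23 (0.333), and none passed. Rsph1 and Slc37a1 overlap at their starts alone (chr17:31495739-31496378), and without strand the reads of that stretch cannot be told apart. On the other side of Tff3, the sterol transporter gene Abcg1 fell (-1.28, adjusted p = 0.016, edgeR), a call that ended without sham replicate 7 (-1.10, adjusted p = 0.0575) and with the acinar covariate (-0.16, adjusted p = 0.877) or library totals alone (-0.29, adjusted p = 0.602). Next to Gkn1, the anthrax toxin receptor gene Antxr1 fell (-1.71, adjusted p = 0.00602, edgeR), a call that ended with the acinar covariate (-0.43, adjusted p = 0.674) and with library totals alone (-0.79, adjusted p = 0.184), while Bmp10 was at 0 counts and Arhgap25 at 0.57 (adjusted p = 0.330).

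**Figure D5:**
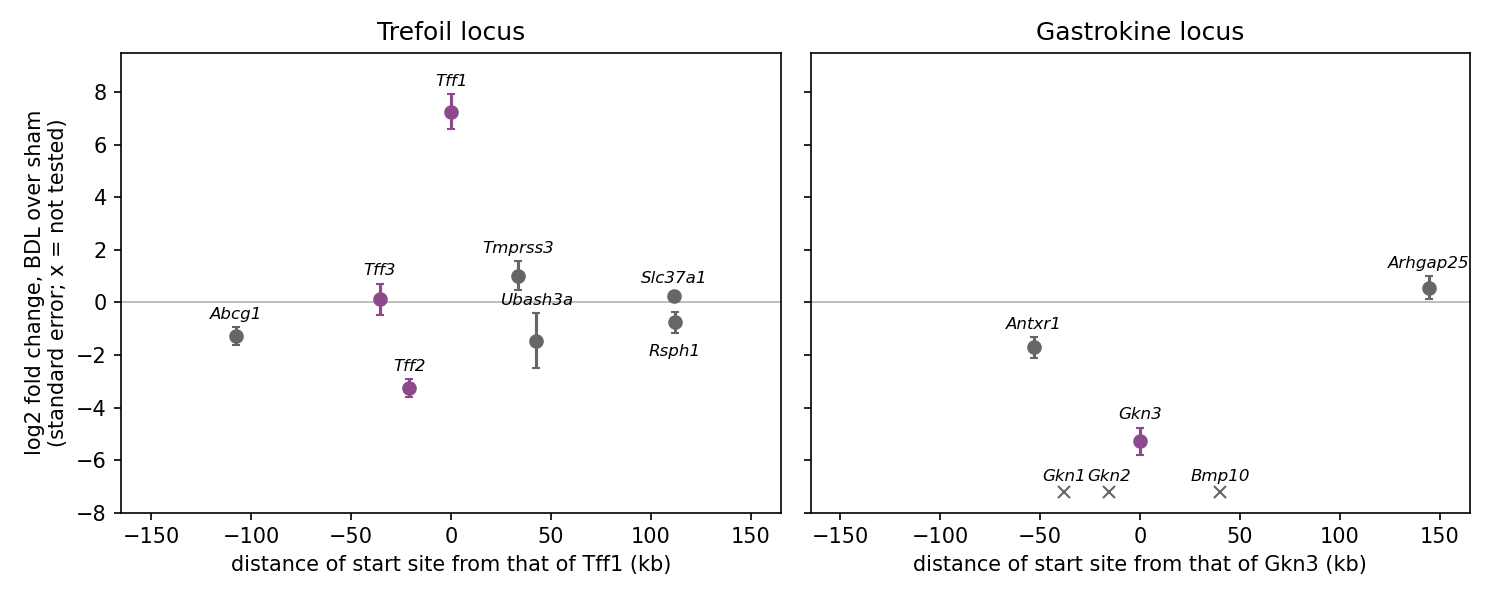
Log2 fold changes (BDL over sham, with standard error) of genes around the trefoil locus (left, distance in kb from the start of Tff1) and the gastrokine locus (right, distance from the start of Gkn3), with members in purple, other genes in gray and crosses for genes not tested. Tff1 at 7.27 stands alone above neighbours between -3.26 and 1.02.

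Among 11765 genes with a mean of at least 100 normalized counts, those whose log2(normalized count + 1) followed each member most closely over the 9 libraries are given as a description, since all of them share the difference between groups. Tff1 was most like Magoh (Pearson r = 0.996), Cdh17 (0.995) and Plek2 (0.994). Cdh17, which encodes the liver-intestine cadherin, moved on the scale of Tff1, from 38.4 ± 23.7 (SD, n = 4) to 4260 ± 1320 (SD, n = 5) normalized counts, and its log2 fold change was 6.79 (standard error 0.48, adjusted p = 1.48e-05, edgeR). Tff2 was most like Gamt (0.996), Nbr1 (0.991) and Gatm (0.990). Gamt and Gatm encode the enzymes of creatine synthesis, which are abundant in pancreas, and had log2 fold changes of -4.10 (adjusted p = 0.00011, edgeR) and -4.86 (0.000478). Under the acinar covariate Gamt passed (-2.67, adjusted p = 0.034) and Gatm did not (-2.61, adjusted p = 0.0804). Gkn3 was most like Bmp4 (0.985), Slc39a8 (0.982) and Zfyve21 (0.981), Agr2 like Crebbp (0.984) and Vgll4 (0.981), Spdef most like Sil1 (0.994), Smim14 (0.993) and Cdip1 (0.990), and Fcgbp most like Tmub1 (0.994), Arhgef28 (0.988) and Aftph (0.984).

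The transcription factors of secretory and foregut epithelium were called about as often as all genes. Of 18 tested, 1 rose, 6 fell and 11 did not pass, beside 41.4% of all genes called, with a median log2 fold change of -0.11. Creb3l4, a membrane-bound factor of the secretory pathway, fell from 459 ± 155 (SD, n = 4) to 59.4 ± 13.6 (SD, n = 5) normalized counts (log2 fold change -2.91, adjusted p = 3.34e-05, edgeR). Foxa3 (-1.77, adjusted p = 0.00166), a forkhead factor of endoderm, and Klf4 (-1.46, 0.000441), a factor of goblet cell maturation, fell as well, calls that ended with library totals alone (-0.69, adjusted p = 0.112, and -0.55, adjusted p = 0.269). Xbp1, which expands the ER of secretory cells, fell with TMM scaling (-0.95, adjusted p = 0.00181, edgeR) and stood at 0.03 (adjusted p = 0.952) with library totals alone. Hnf4a, a factor of gut and liver epithelium, rose (0.69, adjusted p = 0.0139). Foxa2 (-0.22, adjusted p = 0.514), Klf5 (0.16, 0.515) and Pdx1 (0.51, 0.0728) did not pass. Under the acinar covariate Creb3l4 still passed (-2.30, adjusted p = 0.0115, edgeR). Klf4 (-1.12, adjusted p = 0.102, edgeR), Foxa3 (-1.34, 0.225), Xbp1 (-0.58, 0.227) and Hnf4a (0.69, 0.253) did not. The standard error of Hnf4a was 0.34 in that fit and 0.18 without the covariate.

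Of 13 genes of ER protein folding, 5 rose, 3 fell and 5 did not pass, beside 41.4% of all genes called. They were mostly disulfide isomerases, as Agr2 is, and oxidases, but also the stress sensor Ern2. Their median log2 fold change was 0.33. The 3 that fell were Ern2, Ero1b and Agr3. Ern2, the ER stress sensor of mucous epithelia, went from 504 ± 109 (SD, n = 4) to 141 ± 45.5 (SD, n = 5) normalized counts (log2 fold change -1.86, adjusted p = 0.000169, edgeR), and its call ended with library totals alone (-0.97, adjusted p = 0.0517). Ero1b, an oxidase abundant in pancreas, had a log2 fold change of -4.25 (adjusted p = 0.000156, edgeR) and of -3.61 without sham replicate 7 (adjusted p = 0.000384). Agr3, the paralog beside Agr2, was scarce, at 16.3 ± 14.0 normalized counts in sham and 0.739 ± 1.02 after BDL (log2 fold change -4.53, adjusted p = 0.013), and its call ended without sham replicate 7 (-3.92, adjusted p = 0.1). Tmx1 (0.71, adjusted p = 0.00165) and Ero1a (0.85, 0.00217), widely expressed enzymes of the ER, rose. Under the acinar covariate Ero1b (-3.04, adjusted p = 0.0561, edgeR), Agr3 (-8.69, 0.0834), Tmx1 (0.61, 0.141) and Ero1a (0.91, 0.0998) did not pass.

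Mucin genes and the enzymes that build their sugar chains did not move as 1 group. Of 7 mucins tested 2 fell and 5 did not pass, beside 41.4% of all genes called, with a median log2 fold change of -0.67. Muc6, the gel-forming mucin stored with Tff2 in gland cells, stood at 431, 310, 1990 and 793 normalized counts in sham replicates 1, 2, 5 and 7 and at 33.7 to 113 in the BDL libraries (log2 fold change -3.11, standard error 0.52, adjusted p = 0.0012, edgeR). Sham replicate 5 was highest for Muc6 as it was for Gkn3 and Agr2, and without it the log2 fold change of Muc6 was -2.52 (adjusted p = 0.00251). A4gnt, the transferase that adds the terminal sugar typical of Muc6 mucin, had the same highest library, at 28.2, 29.0, 173 and 87.6 normalized counts in sham, and 0 to 2.46 after BDL (log2 fold change -6.59, standard error 0.72, adjusted p = 0.00013). This value rests on 5 counts in the BDL libraries and was -7.27 without BDL replicate 4 (adjusted p = 0.000137). Muc16, a membrane mucin, fell from 183 ± 152 (SD, n = 4) to 1.81 ± 1.72 (SD, n = 5) (log2 fold change -6.47, adjusted p = 0.000316), and stood at -5.60 without sham replicate 5 (adjusted p = 0.00117). Muc1 (-0.08, adjusted p = 0.818), the abundant membrane mucin, did not pass, and Muc5ac and Muc5b, the surface gel-forming mucins, were too scarce to test. In the fit with the acinar covariate A4gnt passed (-7.58, adjusted p = 0.029, edgeR), and Muc6 (-3.39, 0.116) and Muc16 (-3.42, 0.253) did not. The standard error of Muc6 was 1.19 in that fit.

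Of 14 O-glycosylation enzymes tested, 6 rose, 3 fell and 5 did not pass, beside 41.4% of all genes called. Their median log2 fold change was 0.27. Gcnt3, which makes the branched cores of mucin sugars, rose from 1200 ± 625 (SD, n = 4) to 4330 ± 1310 (SD, n = 5) normalized counts (log2 fold change 1.94, adjusted p = 0.000451, edgeR). Galnt3 (1.89, adjusted p = 0.000596), which starts O-linked chains, and B3gnt3 (1.26, 0.000767), which extends them, rose too. A4gnt, Galnt6 and C1galt1c1 were the 3 that fell, and the sign of Galnt6 (-0.70, adjusted p = 0.0374) and C1galt1c1 (-0.34, 0.0406) turned with library totals alone as scaling (0.28 and 0.60). With 1 library left out, Galnt6 did not pass without sham replicate 2 (adjusted p = 0.0968), 5 (0.0675) or 7 (0.104) or BDL replicate 3 (0.0591), 8 (0.0610) or 10 (0.0847), and C1galt1c1 without sham replicate 1 (0.106), 2 (0.0623) or 7 (0.120) or BDL replicate 3 (0.0880), 6 (0.0814), 8 (0.0640) or 10 (0.101). Under the acinar covariate Gcnt3 passed (adjusted p = 0.0149, edgeR). Galnt3 (1.12, adjusted p = 0.129, edgeR), B3gnt3 (1.27, 0.0562), Galnt6 (-0.48, 0.566) and C1galt1c1 (-0.46, 0.241) did not.

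Of 11 other secreted mucosal proteins tested, 4 fell, none rose and 7 did not pass, beside 41.4% of all genes called. The median log2 fold change was -1.50. Clca1, a goblet cell mucus protease, went from 246 ± 332 (SD, n = 4) to 7.53 ± 7.01 (SD, n = 5) normalized counts (log2 fold change -4.70, adjusted p = 0.00178, edgeR), and stood at -3.69 without sham replicate 7 (adjusted p = 0.00942) and -5.56 without BDL replicate 10 (0.00121). The other 3, Zg16 (-6.71, adjusted p = 0.012), Dmbt1 (-1.50, 0.0133) and Reg3b (-4.82, 0.0427), are also made by pancreatic acinar cells. Under the acinar covariate none of the 4 passed (adjusted p = 0.184 to 0.416, edgeR). The log2 fold changes there were -4.53 for Clca1, -0.73 for Zg16 and -0.79 for Dmbt1, and Reg3b turned to 1.32. Zg16 was -8.15 without BDL replicate 3 (adjusted p = 0.0142) and -9.42 without BDL replicate 8 (0.0119), and the call of Dmbt1 ended with library totals alone (-0.52, adjusted p = 0.480) and without BDL replicate 3 (0.0516) or 10 (0.0522). The call of Reg3b ended without sham replicate 2 (0.0797), 5 (0.0666) or 7 (0.0813) or BDL replicate 4 (0.0574), 8 (0.0580) or 10 (0.0776), and its log2 fold change lay between -6.90 and -3.89 with 1 library left out.

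None of the receptors named for trefoil factors passed as higher. Of 3 tested among Cxcr4, Ackr3, Lingo2 and their chemokine ligand Cxcl12, 2 fell, beside 41.4% of all genes called. The median log2 fold change was -1.11. Ackr3, an atypical chemokine receptor, fell from 1120 ± 349 (SD, n = 4) to 407 ± 130 (SD, n = 5) normalized counts (log2 fold change -1.37, adjusted p = 0.00275, edgeR), and did not pass with library totals alone (-0.45, adjusted p = 0.346). Cxcr4, described as a Tff2 receptor in mice, stood at 35.4 ± 16.5 and 58.5 ± 40.7 (log2 fold change 0.82, adjusted p = 0.351), and Lingo2, described as a Tff3 receptor, was too scarce to test. Cxcl12 (-1.11, adjusted p = 0.0477, edgeR) did not pass with library totals alone (-0.20, adjusted p = 0.729) or without sham replicate 1 (0.0728), 2 (0.0875), 5 (0.157) or 7 (0.0673) or BDL replicate 3 (0.101), 6 (0.0921) or 10 (0.0523). Neither Ackr3 (-0.85, adjusted p = 0.307, edgeR) nor Cxcl12 (-0.03, 0.987) passed with the acinar covariate.

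Markers of the neighbouring gut ranged from 0 counts in every library to a sham mean of 1680 normalized counts for Pgc. Beside the list counts below, 41.4% of all genes were called. Of 4 stomach markers tested out of 10, 3 fell, at a median log2 fold change of -2.57, and the summed level was 1620 to 2570 normalized counts in sham and 180 to 600 after BDL. Most of it was Pgc, the pepsinogen C gene, which stood at 1680 ± 417 (SD, n = 4) and 279 ± 112 (SD, n = 5) normalized counts (log2 fold change -2.56, standard error 0.30, adjusted p = 0.000185, edgeR). Of 8 duodenal markers tested out of 12, 2 rose, 2 fell and 4 did not pass, with a median log2 fold change of 2.50. Their summed level was 904 to 1310 in sham and 322 to 3230 after BDL, highest in BDL replicate 6, and Sis and Mep1a of enterocytes were at 0 in every library. BDL replicate 8, the highest library for Tff3, had the lowest summed duodenal level (322), and what set its Tff3 level was not tested. Of 8 hepatocyte markers 2 fell and none rose, at a median log2 fold change of -0.15, while of 14 biliary epithelial markers 8 rose and 2 fell, with a median of 0.81. The summed hepatocyte level was 16800 to 64200 in sham, most of it Cyp2e1 (mean 33000) and Ttr (6420), the 2 that fell. The 6 others had higher means after BDL and did not pass. Alb, for example, stood at 154 ± 82.4 (SD, n = 4) in sham and 723 ± 1600 (SD, n = 5) after BDL. After BDL the summed hepatocyte level was 11190 in replicate 6, against 2738 to 5562 in the others. Replicate 6 was also the highest BDL library for the duodenal markers. Which tissue gave the duodenal level of BDL replicate 6 was not tested. Relative to those biliary markers in the same library the log2 differences were -4.00 for Tff2, -5.95 for Gkn3, -3.00 for Agr2, -2.80 for Spdef and -2.38 for Fcgbp (p = 0.0159 for each, two-sided exact permutation test), and -0.85 for Tff3 (p = 0.190).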

How the data were processed

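Each library came from the EHBD of 1 mouse. The authors prepared libraries from 4 ng of RNA with the SMART-Seq mRNA kit, ran Salmon with Gencode transcripts of GRCm39 and summed the transcripts of each gene. The values are estimated counts per gene that the authors deposited as whole numbers without normalization. The kit does not mark strand. Surgery was taken from the labels and sex from the deposited sample sheet.

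Genes with at least 10 counts in all were fitted with edgeR 4.0.16 in R 4.3.3 (quasi-likelihood test, TMM scaling, surgery and sex as terms, Benjamini-Hochberg adjustment over 21299 genes). The acinar covariate was the log2 CPM of the 20 summed acinar markers. It divides the groups as surgery does. Every member tested had a larger edgeR standard error with it (0.36 against 0.17 for Spdef). A call that ended with it therefore need not mean a smaller change. The edgeR p-values set the group difference against the spread between these mice, which edgeR moderates over all genes. Normalized counts are counts over DESeq2 1.42.0 size factors. Levels per kb used the exon union of each gene in Gencode (55261 IDs matched). Exact permutation tests were two-sided over 126 labelings. Motif matches and start-site windows came from RefSeq on GRCm38.p6, with no coordinates carried between builds. On counts simulated for BDL against sham over 20634 genes, edgeR recovered 86% of genes at 4-fold, 42% at 2-fold, 36% at 0.5 and 80% at 0.25 of the level. The genes changed there were a small part of the 20634, all well expressed, and no acinar difference was simulated. In the data 41.4% of genes were called, so recovery can differ.

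The members and the 12 other gene lists were chosen with earlier results of these data known, so no list count is independent evidence. Named genes are every member, in each list the called genes of smallest p, at most 4, and any called in the direction less frequent there, and the 3 most like each member called. Not every gene that this rule names is reported here. Foxa2, Klf5, Pdx1, Muc1, Muc5ac, Muc5b, Cxcr4, Lingo2 and some cell type markers are also named, though this rule does not choose them. Fcgbpl1 and the locus neighbours were named beside a member's result after their values were seen. Alternatives were DESeq2, 4 other scalings, 2 other filters, other terms and thresholds, each sex, subsets of libraries and each library left out. The name form, the scaling to biliary markers, library totals alone, the fits within each sex and the fit without sham replicate 1 and BDL replicate 8 were chosen after seeing the data.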

Additional observations from a re-analysis of the deposited data

Results flagged for a closer look

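In 90 groups of 4 or 5 libraries examined, 7 held 1 library far from the others. The limits used are passed by about 1 in 20 groups of normally distributed values. Normalized counts were used without a log, so that share may not hold here. Among the members, Tff3 in BDL replicate 8 stood at 2600 normalized counts, against 379 to 679 in the other BDL libraries. Gkn1 stood at 3.63 in sham replicate 2 and at 3.07 in BDL replicate 8, with 0 in all other libraries, and these values are 2 and 5 counts. A group with counts in a single library is flagged whatever its value. Among other genes, Reg3b in BDL replicate 3 stood at 57000 normalized counts, against 24.7 to 4740 in the other BDL libraries. The markers of neighbouring gut that stood apart were all highest in BDL replicate 6: the stomach hormone gene Ghrl at 129 (14.1 to 39.3 in the others), Fabp2 of enterocytes at 82.9 (17.2 to 32.1) and the apolipoprotein gene Apob at 558 (18.8 to 99.2). That library also had the highest summed hepatocyte level of the BDL libraries, and which tissue these counts came from was not tested. The Gkn3 response to BDL differed between the sexes by 2.67 on the log2 scale, male minus female, by DESeq2's test of the difference itself (adjusted p = 0.000106) and not by edgeR's (adjusted p = 1).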

How the results depend on the processing

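The count of 1 member higher and 5 lower stayed within 1.5 times under every alternative except the acinar covariate, which gave 3 lower (Tff2, Gkn3 and Spdef). Library totals alone gave 4 lower, without Fcgbp. DESeq2 called 1 member, Gkn3, for the interaction of sex and surgery where edgeR called 0. With 1 library left out, the members called were 1 higher and 5 lower throughout, the interaction members called were 0, and the acinar share was lower after BDL by a difference of -23.5 to -18.5 percentage points. The log2 fold changes then lay between 6.94 and 8.10 for Tff1, -3.46 and -3.05 for Tff2, -5.69 and -4.96 for Gkn3, -2.54 and -1.99 for Agr2, -2.17 and -2.01 for Spdef and -1.87 and -1.46 for Fcgbp. Signs turned for 4 genes named from the lists: Xbp1 (0.03), Galnt6 (0.28) and C1galt1c1 (0.60) with library totals alone, and Reg3b (1.32) with the acinar covariate. Of the genes called, 51.8% were higher in BDL. This share was 87.7% with library totals alone, which moved the median log2 fold change of all genes from -0.03 to 0.89, and 73.6% with the acinar covariate (1342 higher and 482 lower, against 4565 and 4245). Why these settings differ was not tested. No paired analysis was possible because the groups share no replicate numbers. Tff1 in sham and Gkn1 in both groups rest on 10 and 7 counts, so their levels there are limited by depth.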
